A study of Mus musculus with 10 samples.

Results

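Tropomyosins are encoded in the mouse by 4 genes, Tpm1, Tpm2, Tpm3, and Tpm4, and all 4 were among the 16112 genes counted in this RNA-seq series of skeletal muscles. The genes were found by matching the Ensembl identifiers of the count tables to the GENCODE M21 annotation of GRCm38. Membership rests on the gene names and not on measured values, although the family was taken up with earlier results of these data known. Tropomyosins are coiled-coil proteins that lie end to end along actin filaments. In muscle, together with troponin, they cover or expose the myosin binding sites of the thin filament as calcium changes. Tpm1 encodes the alpha tropomyosin of fast fibers, Tpm2 the beta tropomyosin found in both fast and slow fibers, and Tpm3 the alpha tropomyosin of slow fibers. Tpm4 encodes a tropomyosin mainly of non-muscle actin filaments. Alternative promoters and splicing give Tpm1 and Tpm3 both long striated muscle forms and short cytoskeletal forms, and a count per gene adds them together.

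The study compared the fast extensor digitorum longus (EDL) and psoas with the slow soleus in 10 libraries of total RNA (EDL, n = 3, psoas, n = 3, and soleus, n = 4). The mice were of the strain B6C3Fe a/a-Ttnmdm/J, which carries the titin mutation mdm and were labelled wild type, so no group carried a mutant genotype. EDL came from mice of 42, 54, and 44 days (replicates 1 to 3), psoas from mice of 42, 54, and 44 days, and soleus from mice of 42, 44, 32, and 44 days (replicates 1 to 4). Of the 10 libraries, 5 were labelled male (EDL 1, EDL 2, psoas 1, psoas 2, and soleus 1) and 4 female (EDL 3, psoas 3, soleus 2, and soleus 4). The sex of soleus 3 was not given. The samples carry 7 animal codes, and 3 codes gave 2 libraries each: psoas 1 and soleus 1, EDL 3 and soleus 2, and psoas 3 and soleus 4 each came from 1 code. The paper counts fewer mice than there are codes, so p-values measure the spread between these libraries, which is not always a spread between animals. Each library is of a whole muscle sample, in which fewer cells of a type and less RNA per cell cannot be told apart.

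Depth differed between libraries, with total counts of 15016122 to 47825953 in EDL, 13820086 to 50431713 in psoas, and 12737971 to 26848423 in soleus. Low-quality bases had been trimmed from the reads of EDL 1, EDL 2, psoas 1, and psoas 2 but not from the other 6 libraries, which include all soleus libraries. In EDL and psoas, the trimmed libraries were male and the untrimmed ones female, so that trimming and sex cannot be told apart there. Markers of skeletal muscle fibers were high in every library, with a summed level of 102063 to 135583 CPM (normalized counts scaled by library size) in EDL, 155564 to 185965 CPM in psoas, and 107218 to 125787 CPM in soleus. Fast myosin Myh4 made up 75.2%, 78.8%, and 83.5% of the summed Myh7, Myh2, Myh1, and Myh4 values per kilobase in EDL, 85.5%, 81.6%, and 70.0% in psoas, but 0.508% to 7.32% in soleus. The Myh4 shares thus set soleus apart from EDL and psoas. Slow Myh7 made up 19.7%, 42.6%, 24.7%, and 33.4% in soleus 1 to 4. Fast Myh2 made up 33.0%, 43.2%, 42.3%, and 35.7% there, and fast Myh1 40.9%, 13.7%, 25.7%, and 24.0%. Soleus libraries thus held both slow and fast myosin, with Myh2 above Myh7 in each. None of the measured marker genes was at or under the floor of 3 counts in all libraries of a muscle.

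Tpm1 (ENSMUSG00000032366) lies on the reverse strand of chr9:67022590-67049406 and has 16 protein-coding transcripts. Tpm2 (ENSMUSG00000028464) lies on the reverse strand of chr4:43514711-43523765, and Tpm3 (ENSMUSG00000027940) on the forward strand of chr3:90072649-90100902. Tpm4 (ENSMUSG00000031799) lies on the forward strand of chr8:72134975-72153142 and has 1 protein-coding transcript, which encodes a short form. The genes Gm16091 and Gm26586 overlap Tpm4 on the other strand and were not analysed here. The library kit kept the strand, but whether the counting used it is not given in the sources used here. A further gene with reads like those of the family is Tpm3-rs7 (ENSMUSG00000058126), a copy of Tpm3 without introns on the forward strand of chr14:113314608-113316754. It is annotated as protein-coding and was counted as a gene of its own. The only other counted gene whose symbol begins with Tpm, Tpmt, encodes thiopurine methyltransferase and is not a tropomyosin.

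The start of the coding sequence is shown to compare how far the genes can be told apart by their reads. The first 75 coding bases of long transcripts, 5′ to 3′ from GRCm38, lie in the first coding exon at chr9:67049058-67049132 for Tpm1-205 and chr4:43523280-43523354 for Tpm2-202, both on the reverse strand. Capitals mark bases that differ from Tpm1-205.
Tpm1-205: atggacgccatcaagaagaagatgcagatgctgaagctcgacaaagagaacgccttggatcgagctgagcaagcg
Tpm2-202: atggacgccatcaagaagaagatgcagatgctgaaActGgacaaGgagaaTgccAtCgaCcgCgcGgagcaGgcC
Over these 75 bases, Tpm2-202 differed from Tpm1-205 at 11 positions. Over the whole coding sequence of 855 bases (284 residues), Tpm1-205 was 78.5% identical to Tpm2-202 and 80.5% to Tpm3-205, and Tpm2-202 was 78.2% identical to Tpm3-205.

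The same stretch of the short transcripts is shown because it holds a copy that is nearly identical to a member. It lies at chr3:90079732-90079806 for Tpm3-201, chr14:113314676-113314750 for Tpm3-rs7-201, and chr8:72135322-72135396 for Tpm4-201, all on the forward strand. Capitals mark bases that differ from Tpm3-201.
Tpm3-201: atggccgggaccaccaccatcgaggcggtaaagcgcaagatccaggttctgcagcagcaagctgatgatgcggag
Tpm3-rs7-201: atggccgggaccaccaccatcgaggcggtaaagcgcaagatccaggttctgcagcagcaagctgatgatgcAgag
Tpm4-201: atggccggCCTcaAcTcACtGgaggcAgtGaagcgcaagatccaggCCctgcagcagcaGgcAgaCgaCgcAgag
Tpm3-rs7-201 differed from Tpm3-201 at 1 of these 75 bases, and 744 of the 747 coding bases were identical (99.6%). Tpm4-201 differed at 17 of the 75 bases and was 71.5% identical over 747 coding bases. No stretch of 75 bases, the read length, was shared by any pair of the 4 tropomyosin genes, also when 2 mismatches were allowed. Tpm3-rs7 shared 1220 of its 2073 distinct stretches (58.9%) with Tpm3 exactly, and 86.3% within 2 mismatches. The part of Tpm3 shared exactly differed by transcript, from 29.3% of the stretches of the long Tpm3-205 to 56.6% of those of the short Tpm3-201. It did not follow the form, as the long Tpm3-204 shared 53.3% and the short Tpm3-203 shared 32.6%. Counts of Tpm3-rs7 are therefore uncertain, and how reads with several alignments were counted is not given in the sources used here.

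Levels are given as FPKM, in which counts are divided by the summed exon length of the gene and by the library size from DESeq2 size factors. Summed exons are 6485 bases in Tpm1, whose long transcripts have at most 1898, and 2909 in Tpm2, whose transcripts have at most 2175. The longest coding transcript of Tpm1, with 2890 bases, encodes a short form. Levels of different members are thus compared only roughly, under either length. Tpm1 was the member with the highest level in every library. Among the 16032 genes with a symbol, its mean FPKM ranked 46 in EDL, 36 in psoas, and 54 in soleus. In EDL, psoas, and each of their libraries the order was Tpm1, Tpm2, Tpm4, and Tpm3. In each soleus library it was Tpm1, Tpm3, Tpm2, and Tpm4. Within a muscle, the libraries of neighbors in these orders did not overlap. Tpm3 thus stood last in both fast muscles, with ranks of 4332 in EDL and 7952 in psoas, and second in soleus, with a rank of 94. The sum of the 4 genes was 1631 ± 228 FPKM in EDL (SD, n = 3), 2646 ± 288 in psoas (n = 3), and 1451 ± 137 in soleus (n = 4). These genes took 1.12% ± 0.286 of all counts in EDL, 1.30% ± 0.142 in psoas, and 0.916% ± 0.122 in soleus.

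**Figure D1:**
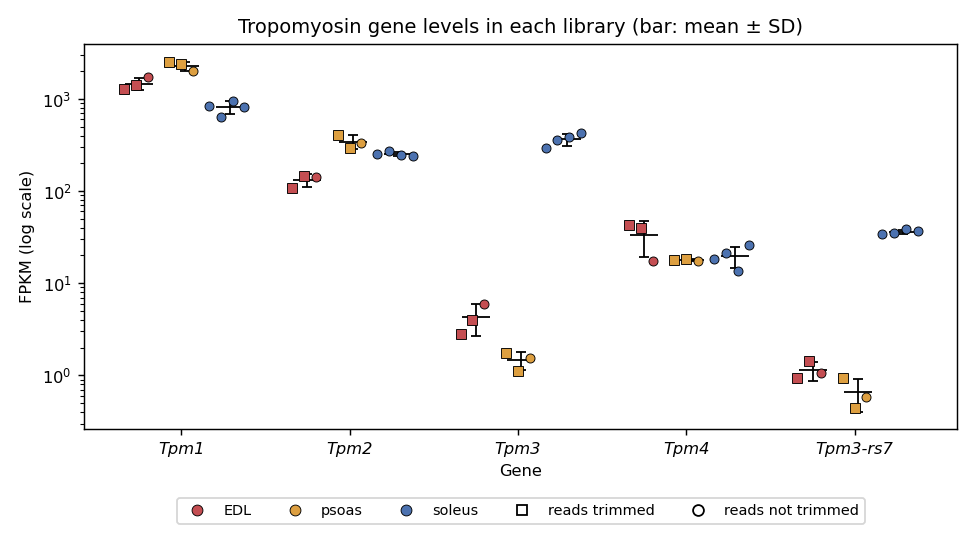
FPKM (log scale) of the tropomyosin genes and Tpm3-rs7 in each library, colored by muscle, with squares for trimmed and circles for untrimmed libraries and bars for mean ± SD (n = 3 EDL, 3 psoas, 4 soleus). Tpm3 lay between 296 and 425 FPKM in soleus and between 1.11 and 6.02 in EDL and psoas, while Tpm4 overlapped between the muscles.

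Differential expression between the muscles was tested by quasi-likelihood in edgeR, fitting the 10 libraries together and adjusting over all 16112 genes after Benjamini-Hochberg. A gene was called where its adjusted p was below 0.01 and it differed by more than 2-fold. The SE given with an edgeR fold change is the absolute log2 fold change divided by the square root of the F statistic. It was thus derived from the test and is not a standard error printed by the fit. Of the 4 tropomyosin genes, Tpm2 alone was called between psoas and EDL, where 2.11% of all genes were (0.54% higher and 1.57% lower in psoas). Between soleus and EDL 1 was called (Tpm3), where 5.77% of all genes were (3.59% higher and 2.18% lower in soleus). Between soleus and psoas 2 were called, Tpm3 higher and Tpm1 lower in soleus, where 5.69% of all genes were (2.99% higher and 2.71% lower). The libraries of Tpm1, Tpm2, and Tpm3 did not overlap between the muscles in any comparison. In the same order of comparisons, 29.6%, 29.5%, and 25.8% of all genes did not overlap. The 3 comparisons share libraries and are not independent of each other.

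**Figure D2:**
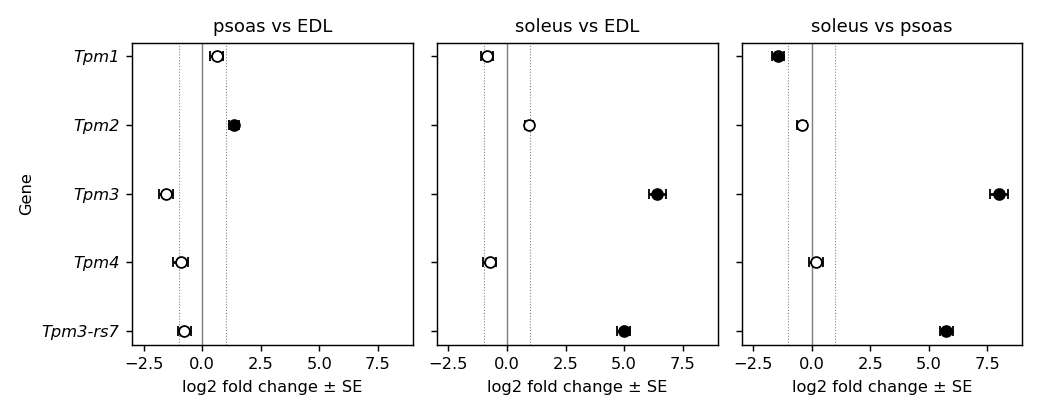
Log2 fold changes ± SE of the tropomyosin genes and Tpm3-rs7 in the 3 comparisons, from edgeR. Filled circles were called, open circles were not, and dotted lines mark a fold change of 2 in either direction. Tpm3 was 6.42 higher in soleus than in EDL and 7.99 higher than in psoas on this scale, and all other differences of members lay between -1.56 and 1.36.

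Tpm3, the slow alpha tropomyosin, differed most between the muscles. It had 296, 356, 386, and 425 FPKM in soleus 1 to 4. In EDL 1 to 3 the levels were 2.84, 4.02, and 6.02 FPKM, and in psoas 1 to 3 they were 1.76, 1.11, and 1.53 FPKM. Every soleus library lay far above every library of the fast muscles, and every EDL library lay above every psoas library. The psoas levels rest on 401, 106, and 133 counts and the EDL levels on 753, 1305, and 675, against at least 26625 counts in soleus. Tpm3 rose 85.9-fold from EDL to soleus (log2 fold change 6.42, SE 0.36, adjusted p = 4.6e-06) and 253-fold from psoas to soleus (7.99, SE 0.39, adjusted p = 1.6e-06). By p-value, it ranked 2 of 16112 genes in both comparisons. Both calls held in all 20 other settings, with log2 fold changes from 6.14 to 6.75 against EDL and from 7.65 to 8.11 against psoas. Within the mouse that gave EDL 3 and soleus 2, Tpm3 was 59.2-fold higher in soleus. Soleus was 168-fold higher than psoas within the mouse of psoas 1 and soleus 1 and 278-fold higher within that of psoas 3 and soleus 4. Of the libraries in these pairs, psoas 1 alone was trimmed.

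Between the fast muscles, Tpm3 was 2.95-fold lower in psoas than in EDL (log2 fold change -1.56, SE 0.30) and did not pass the test (adjusted p = 0.0106). It was called in 7 of 20 other settings, among them DESeq2 (adjusted p = 6.2e-06), limma-voom (0.00933), read trimming as covariate (0.00601), and the fit without EDL 3 (0.0099). The ratio was 2.39-fold lower among the trimmed and 3.94-fold lower among the untrimmed libraries.

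Tpm3-rs7, the copy of Tpm3, had 34.4, 34.8, 38.3, and 37.1 FPKM in soleus 1 to 4. In EDL 1 to 3 the values were 0.931, 1.44, and 1.06 FPKM, and in psoas 1 to 3 they were 0.944, 0.447, and 0.585 FPKM. Counts assigned to the copy were thus high in the same libraries as those of Tpm3. They rose 31.5-fold from EDL to soleus (log2 fold change 4.98, SE 0.26, adjusted p = 4.6e-06) and 53.4-fold from psoas to soleus (5.74, SE 0.28, adjusted p = 1.6e-06), with the smallest p-value of all genes in both comparisons. For every 100 Tpm3 counts there were 3.53 ± 0.421 counts of the copy in soleus (SD, n = 4), 10.1 ± 3.44 in EDL (n = 3), and 15.5 ± 2.97 in psoas (n = 3). In the fast muscles this ratio rests on few counts of the copy, 42 to 165 in EDL and 15 to 76 in psoas. Adding them to Tpm3 gave Tpm3 log2 fold changes of 6.34 against EDL and 7.82 against psoas and changed no call of a member.

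Tpm1, the fast alpha tropomyosin, was highest in psoas and lowest in soleus. Its levels were 1269, 1404, and 1709.7 FPKM in EDL 1 to 3. Psoas 1 to 3 had 2488, 2367, and 1992 FPKM, and soleus 1 to 4 had 844, 634, 953, and 824 FPKM. The 3 muscles did not overlap, although the slow muscle still held more Tpm1 than any other tropomyosin. Summed markers of skeletal muscle fibers were also highest in psoas (155564 to 185965 CPM, against 102063 to 135583 in EDL and 107218 to 125787 in soleus). The part of fiber content in the Tpm1 levels was not tested. Tpm1 fell by 1.46 on the log2 scale from psoas to soleus (2.76-fold lower, SE 0.26, adjusted p = 0.00319). It was 1.79-fold lower in soleus than in EDL (adjusted p = 0.0412) and 1.54-fold higher in psoas than in EDL (adjusted p = 0.159), and neither difference passed. The call between soleus and psoas was lost in 7 of 20 other settings, among them the fits without psoas 1 (adjusted p = 0.0125), psoas 2 (0.015), soleus 2 (0.0104), or soleus 4 (0.0145), and those with read trimming (0.0121) or the run proxy (0.016) as covariate. The run of each library is not given in the sources used here, and the run proxy is a guess at it with 3 levels, trimmed libraries, untrimmed libraries of mice of 44 days, and other untrimmed libraries. Among untrimmed libraries, soleus was 2.45-fold lower than psoas. It was 2.95-fold and 2.42-fold lower within the mice of psoas 1 and psoas 3, of which psoas 1 was trimmed, unlike the soleus libraries.

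Tpm2, the beta tropomyosin, was lowest in EDL. Its levels were 108, 146, and 142 FPKM in EDL 1 to 3. They were 407, 293, and 332 FPKM in psoas 1 to 3 and 255, 269, 246, and 237 FPKM in soleus 1 to 4. Psoas lay above soleus and soleus above EDL, with no overlap. Tpm2 rose 2.57-fold from EDL to psoas (log2 fold change 1.36, SE 0.20, adjusted p = 0.00356). In soleus it was 1.92-fold higher than in EDL (0.94, SE 0.19, adjusted p = 0.00703), under the fold change of 2, and it had a log2 fold change of -0.42 against psoas (adjusted p = 0.161). The call between psoas and EDL was lost in 7 of 20 other settings, among them the fits without EDL 1 (adjusted p = 0.0216), EDL 2 (0.0153), psoas 1 (0.0137), psoas 2 (0.0102), or psoas 3 (0.0131), and the fit of these muscles alone (0.0241). The ratio of psoas to EDL was 2.76 among the trimmed and 2.33 among the untrimmed libraries. Without EDL 3, the difference between soleus and EDL was called (adjusted p = 0.00701).

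Tpm4, the tropomyosin of non-muscle actin filaments, was not called in any comparison. Its levels were 43.0, 39.6, and 17.4 FPKM in EDL 1 to 3. They were 17.8, 18.4, and 17.5 FPKM in psoas 1 to 3 and 18.3, 21.2, 13.6, and 25.9 FPKM in soleus 1 to 4. The muscles overlapped, with EDL 1 and EDL 2 above all other libraries and EDL 3 level with the psoas libraries. The log2 fold change was -0.92 in psoas (SE 0.32, adjusted p = 0.0835) and -0.74 in soleus (SE 0.29, adjusted p = 0.0952) against EDL, and 0.17 in soleus against psoas (SE 0.30, adjusted p = 0.749). Without EDL 3, Tpm4 was called in both comparisons with EDL, at -1.22 in psoas (adjusted p = 0.00711) and -1.05 in soleus (0.00734). Psoas was 2.28-fold lower than EDL among the trimmed libraries, while the untrimmed psoas 3 and EDL 3 had a ratio of 1.01. With the run proxy as covariate, the log2 fold change in soleus was -0.01 against EDL and 0.81 against psoas. No soleus library was trimmed, so the trimming difference in this fit came from EDL and psoas alone. Among untrimmed libraries, the mean of soleus was 1.13-fold the level of EDL 3 and 1.13-fold that of psoas 3.

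Markers of other cell types were set beside Tpm4, and they matched it in some libraries only. The summed CPM of 7 macrophage markers was 164, 186, and 77.2 in EDL 1 to 3, 29.2 to 63.3 in psoas, and 59.6 to 91.5 in soleus. The summed CPM of 6 endothelial markers was 219, 192, and 126 in EDL 1 to 3, 116 to 126 in psoas, and 144 to 168 in soleus. EDL 1 and EDL 2 were thus the highest libraries for both lists, as for Tpm4, while the order of the libraries within psoas and within soleus differed from that of Tpm4 for both. The 7 fibroblast markers summed to 3643, 2637, and 2026 CPM in EDL 1 to 3, to 697 up to 1024 in psoas, and to 648 up to 1308 in soleus. The 6 tendon markers ranged from 639 to 741 CPM in EDL, 30.3 to 80.2 in psoas, and 80.9 to 415 in soleus when summed. For both of these lists EDL 3 also lay above all psoas and soleus libraries, unlike for Tpm4. All 6 tendon markers were called lower in psoas than in EDL, as were 1 of 7 fibroblast and 1 of 7 macrophage markers, beside 1.57% of all genes. The 5 measured smooth muscle markers gave 81.8, 87.1, and 43.6 CPM in EDL 1 to 3, 43.6 to 76.2 in psoas, and 56.2 to 80.5 in soleus. EDL 1 and EDL 2 were thus the highest libraries for this list too, although soleus 2 reached 80.5 CPM. For every macrophage marker EDL 1 and EDL 2 were the highest libraries, although Cd68 had 1.7 CPM in EDL 1 and 1.69 in psoas 1. Members of the endothelial and smooth muscle lists differed. EDL 1 and EDL 2 were both highest for Pecam1, Tek, and Emcn of the endothelial list and for Myh11 of the smooth muscle list. They were not for Cdh5, Kdr, Cldn5, Cnn1, Acta2, Tagln, or Smtn. Cdh5 had 9.55 to 11.6 CPM in EDL and 12.7 to 22.1 in psoas. The 3 erythroid markers gave between 3.01 and 97.6 CPM over all libraries, and the 4 measured markers of immature fibers between 377 and 1550.0. The part of other cell types, of read trimming, and of sex in the Tpm4 levels was not tested.

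**Figure D3:**
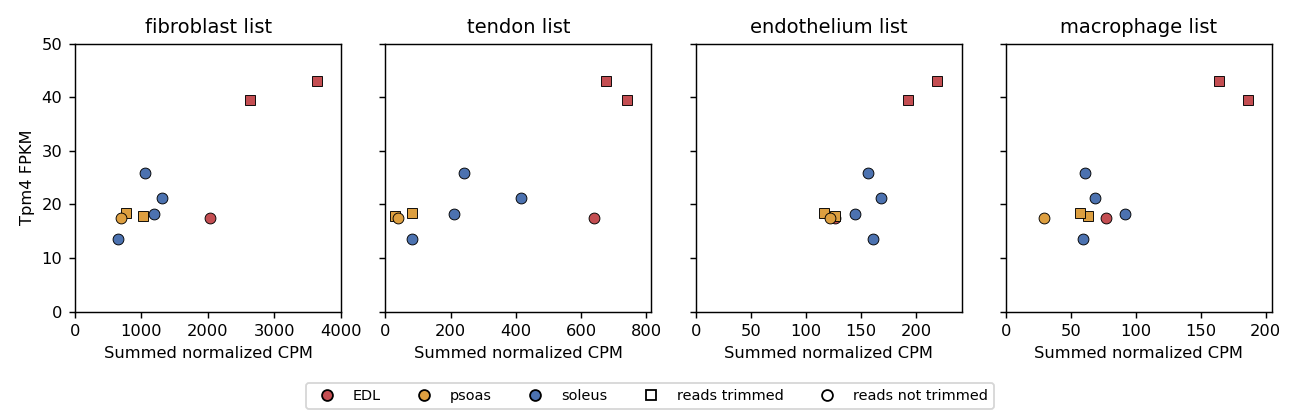
Tpm4 FPKM (vertical axis) against the summed normalized CPM of 4 marker lists (horizontal axes) in each library, colored by muscle, with squares for trimmed and circles for untrimmed libraries. EDL 1 and EDL 2 lay at 43.0 and 39.6 FPKM and were highest for the macrophage and endothelium lists, and EDL 3 lay at 17.4 FPKM.

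The make-up of the family was taken per library as the share of each gene in the summed values per kilobase. Tpm1 made up 89.2%, 88.1%, and 91.2% in EDL 1 to 3 and 85.4%, 88.3%, and 85.0% in psoas 1 to 3. In soleus 1 to 4 it made up 59.7%, 49.5%, 59.6%, and 54.5%. With summed exons as length, Tpm1 thus exceeded the sum of the others in every library except soleus 2. With the longest coding transcript as length it did so in soleus 2 too (1423 FPKM, against 359 for Tpm2, 971 for Tpm3, and 21.9 for Tpm4). Each soleus library had a lower Tpm1 share than any EDL or psoas library. Tpm3 took 20.9%, 27.8%, 24.1%, and 28.1% in soleus 1 to 4. Its share was at most 0.321% in EDL (lowest 0.200%) and 0.0651% in psoas (lowest 0.0416%). On average, soleus differed from EDL by -33.7 percentage points in Tpm1 (55.8% ± 4.85 against 89.5% ± 1.55, SD) and by 25.0 in Tpm3 (25.3% ± 3.39 against 0.258% ± 0.0607). The larger part of the lower Tpm1 share in soleus was thus matched by the Tpm3 share.

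Tpm2 rounded out the difference, by 9.43 percentage points, and its share was 8.11% ± 0.894 in EDL (SD, n = 3), 13.0% ± 1.81 in psoas (n = 3), and 17.5% ± 2.59 in soleus (n = 4). The libraries of the 3 muscles did not overlap in this share. For Tpm4, the share was 3.02%, 2.49%, and 0.927% in EDL 1 to 3, 0.610% to 0.748% in psoas, and 0.849% to 1.71% in soleus. Shares and the Tpm1 to Tpm2 ratio gave 15 exact two-sided permutation tests over libraries, of which 13 had no overlap between muscles. Those 13 were at the smallest p that the design allows, 0.1 for 3 libraries against 3 and 0.0571 for 4 against 3, so that no test could pass 0.05. The others were the Tpm1 share in psoas against EDL (exact permutation p = 0.2) and the Tpm4 share in soleus against EDL (exact permutation p = 0.229). Shares depend on the lengths used: with the longest coding transcript in place of the summed exons, the mean Tpm3 share in soleus was 31.4% and the Tpm2 share 10.7%.

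**Figure D4:**
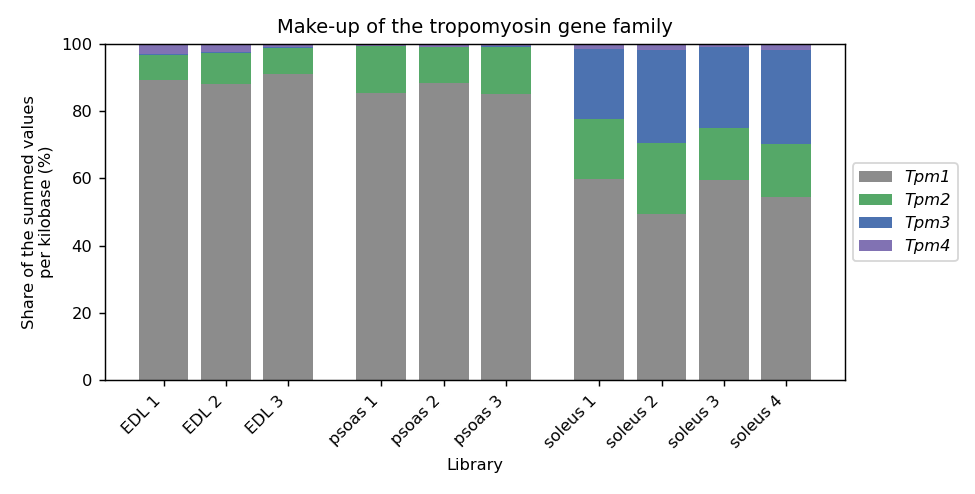
Share of each tropomyosin gene (%) in the summed values per kilobase of each library, as stacked bars from 0 to 100. Tpm3 made up 20.9% to 28.1% in soleus and at most 0.321% in EDL and psoas.

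The ratio of Tpm1 to Tpm2, the fast alpha to the beta tropomyosin, separated the 3 muscles and needs no scaling between libraries, but its size depends on the gene lengths used. It was 11.7, 9.64, and 12.0 in EDL 1 to 3. It was 6.11, 8.08, and 6.01 in psoas 1 to 3 and 3.31, 2.36, 3.87, and 3.47 in soleus 1 to 4. No muscle overlapped another. The mean log2 ratio was 3.47 ± 0.175 in EDL (SD, n = 3), 2.74 ± 0.24 in psoas (n = 3), and 1.68 ± 0.308 in soleus (n = 4). With the longest coding transcript as length, these means were 4.22, 3.48, and 2.42. Psoas thus lay between EDL and soleus in this ratio, although it had the highest Tpm1 and Tpm2 levels of the 3 muscles.

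**Figure D5:**
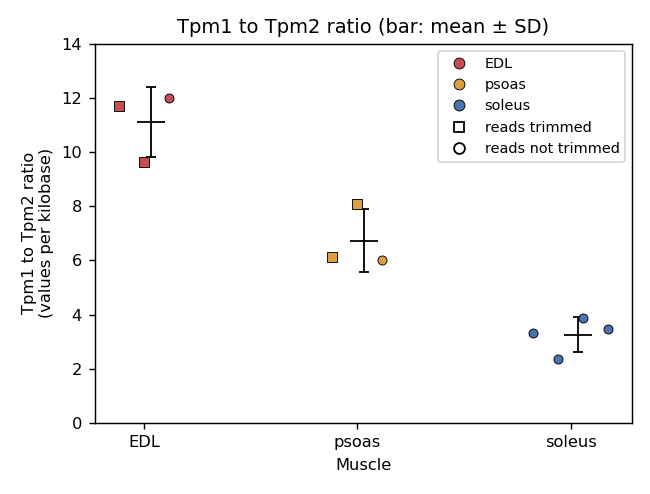
Ratio of Tpm1 to Tpm2 values per kilobase in each library by muscle, with squares for trimmed and circles for untrimmed libraries and bars for mean ± SD (n = 3, 3, and 4). Libraries lay between 9.64 and 12.0 in EDL, 6.01 and 8.08 in psoas, and 2.36 and 3.87 in soleus.

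Myh7 encodes the slow myosin heavy chain, and its share among the 4 myosin genes was set beside the Tpm3 share. In soleus 1 to 4, the Myh7 share was 19.7%, 42.6%, 24.7%, and 33.4%. Soleus 1 had the lowest share of both Myh7 and Tpm3, while Myh7 was highest in soleus 2 and Tpm3 in soleus 4. In EDL 1 to 3, the Myh7 share was 0.0103%, 0.0426%, and 0.124%, with EDL 1 lowest and EDL 3 highest, as for Tpm3. Psoas had Myh7 shares of 0.00347%, 0.01%, and 0.00511%, and psoas 2, the highest of these, had the lowest Tpm3 share.

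Tropomyosin works on the thin filament with troponin, actin, and proteins that set the length of the filament and cap its ends. Of 33 genes listed for these, 32 were tested. Between psoas and EDL none of the 32 was called by edgeR, which called 2.11% of all genes, and 17 had an unadjusted p under 0.05, as had 29% of all genes. DESeq2 called 3 of the 32 and 6.8% of all genes, and limma-voom 0 of the 32 and 2.19% of all genes. Between soleus and EDL 7 were called higher in soleus, where 3.59% of all genes were, and 2 lower, where 2.18% were. Between soleus and psoas 6 were called higher, beside 2.99% of all genes, and 3 lower, beside 2.71%. The median log2 fold change of the 32 genes was 0.05, -0.07, and 0.31 in these comparisons, beside 0.01, -0.05, and 0.02 for all genes. The lists were written with earlier results of these data known.

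The slow troponins were the thin filament genes with the largest changes. Tnnc1, which binds calcium, Tnni1, which inhibits, and Tnnt1, which binds tropomyosin, rose by log2 fold changes of 7.23, 7.22, and 7.12 from EDL to soleus and of 9.27, 9.80, and 9.57 from psoas to soleus. Their SEs ranged from 0.72 to 0.95, against 0.36 and 0.39 for Tpm3. The psoas levels rest on few counts, 9, 7, and 7 for Tnnc1, 20, 21, and 31 for Tnni1, and 60, 34, and 85 for Tnnt1. In EDL 1, Tnnc1 had 13 counts. Mean levels in soleus were 211 FPKM for Tnnc1, 308 for Tnni1, and 1070.2 for Tnnt1, beside 366 for Tpm3. Of the fast troponins, Tnni2 fell by 1.16 from psoas to soleus. Tnnt3 had a log2 fold change of -1.11 there, with an adjusted p of 0.0177, and Tnnc2 one of -0.92, with an adjusted p of 0.0572. Tnni2 and Tnnt3 held high levels in soleus, with 2030.3 and 3794 FPKM. The cardiac forms Tnni3 and Tnnt2 were called higher in soleus than in psoas, at mean levels in soleus of 0.329 and 0.362 FPKM, and Tnni3 had at most 3 counts in each psoas library.

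Among genes of filament length and capping, the leiomodin Lmod2, which elongates thin filaments at their pointed ends, rose by 3.05 from EDL and 1.89 from psoas to soleus. The nebulin relative Nrap rose by 1.50 and Lmod3 by 1.16 from EDL to soleus. Tmod1, a tropomodulin that binds tropomyosin and caps pointed ends, fell by 1.03 from EDL and by 1.75 from psoas to soleus. Lmod1 fell by 3.29 from psoas to soleus. Of the actins, Actc1, the cardiac actin, fell by 3.49 from EDL to soleus (adjusted p = 0.00896), with means of 159 ± 115 and 14.3 ± 9.69 FPKM (SD, n = 3 and 4). EDL 1 to 3 had 221, 26.6, and 231 FPKM of Actc1, so EDL 2 lay close to soleus 1 (25.5 FPKM). Acta1, the main actin of skeletal muscle, had log2 fold changes of 0.74 and -0.05 in soleus against EDL and psoas (adjusted p = 0.158 and 0.946).

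The genes whose normalized CPM followed each member most closely across the 10 libraries were sought among 5607 protein-coding genes, by Pearson's r on a log2 scale. The points share the 3 muscles and their depths, so that r is a description only. For Tpm3 these genes were Tnnt1 (0.994), Tnnc1 (0.993), Tnni1 (0.993), Ankrd50 (0.993), and Myh6 (0.992), of which Myh6 is a near copy of Myh7 and may share its reads. For Tpm1 they included Mtmr10 (0.988), 1110012L19Rik (0.986), Phkb, a subunit of phosphorylase kinase (0.981), and C2cd2 (0.979). For Tpm2 they were Ldb3, a protein of the Z-disk (0.989), Pitpnc1 (0.974), Lnpep (0.969), Sim1 (0.964), and Ppp2r3a (0.964). For Tpm4 they included Sptan1, the non-erythroid alpha spectrin (0.924), Ostf1 (0.923), Elovl5 (0.920), and Ptbp3 (0.919).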

How the data were processed

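Total RNA of EDL, psoas, and soleus was sequenced by the authors as read pairs from stranded libraries. Per the labels and the paper's methods, the authors used Trimmomatic (version 0.32) on libraries of low quality, aligned the reads with TopHat2 (version 2.1.1) to GRCm38, counted reads per gene with GenomicFeatures and GenomicAlignments, and kept genes that had 10 or more reads in 3 or more samples. These raw counts were deposited without normalization, and all 16112 genes met this filter. The strand setting and the handling of reads with several alignments are not given in the sources used here.

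Samples were grouped by their labels. The main test was the quasi-likelihood test of edgeR 4.0.16 (in R 4.3.3) with TMM normalization and no covariate. DESeq2 1.42.0 and limma 3.58.1 served as alternatives. Shares and exact permutation tests were computed in Python 3.11.15 by way of pandas 2.3.3, numpy 2.4.6, and scipy 1.17.1. Scripts were tested on simulated data. FPKM used DESeq2's size factors and exon lengths summed from GENCODE M21, and sequences were read from GRCm38. Depth limits levels that rest on few counts, such as Tpm3-rs7 in the fast muscles and Tnnc1, Tnni1, Tnnt2, and Tnni3 in psoas.

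The text names the 4 members, other genes whose symbol begins with Tpm or that overlap a member, up to 8 called genes of the thin filament lists (those with the largest log2 fold change), and the 5 genes most correlated with each member among those with a mean of at least 10 CPM. Acta1, Tnni2, Tnnt3, Tnnc2, and the myosin values were added for their role after their values were seen. The members, the thin filament lists, and the marker lists of fibers, immature fibers, smooth muscle, fibroblasts, tendon, endothelium, macrophages, and erythroid cells were chosen with earlier results of these data known. Alternatives were DESeq2, limma-voom, DESeq2's size factors, a stricter filter, fits of 2 muscles, covariates for trimming, run proxy, and replicate number, the animal as random effect, the counts of Tpm3-rs7 added to Tpm3, other lengths, and leaving out each library. The values of 2 genes that the rule takes and 1 sequence are not reported here. Protein sequences were not used here.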

Additional observations from a re-analysis of the deposited data

How the results depend on the processing

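The Tpm3 and Tpm3-rs7 calls in both soleus comparisons held in each alternative run, and the log2 fold changes of the 4 members kept their sign except for Tpm4 between soleus and psoas (0.17), which was -0.04 with replicate number as a block and was called in neither. Genes called between psoas and EDL (340) numbered 1095 with DESeq2, 153 in the fit of 2 muscles, 605 with trimming and 757 with the run proxy as covariate, and 61 to 963 without single libraries (lowest without psoas 2, highest without EDL 3). Between soleus and EDL (929) they numbered 1520 with DESeq2, 371 with trimming, 251 with the run proxy, and 385 (without EDL 1) to 1511 (without EDL 3). Between soleus and psoas (917) they numbered 1382 with DESeq2, 566 with trimming, 475 with the run proxy, and 493 (without psoas 2) to 964 (without EDL 3). Tropomyosin genes called between psoas and EDL (1) were 2 with DESeq2, limma-voom, the stricter filter, trimming, the run proxy, and the animal as random effect, 0 in the fit of 2 muscles, and 0 to 3 without single libraries. Without single libraries they were 1 to 3 between soleus and EDL (1) and 1 to 2 between soleus and psoas (2), where trimming and the run proxy each gave 1. Thin filament genes called between psoas and EDL (0) were 3 with DESeq2, 1 with trimming, 2 with the run proxy, and 0 to 1 without single libraries. Between soleus and EDL (9) they were 5 with the run proxy and 5 to 7 without single libraries (5 without EDL 1, psoas 1, psoas 2, soleus 2, soleus 3, or soleus 4), and between soleus and psoas (9) they were 5 to 8 (5 without psoas 2, soleus 2, or soleus 4). The cause of these moves was not tested.

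Of the same-numbered libraries only psoas 1 and soleus 1 came from 1 animal code (correlation of their deviations from the muscle means 0.382). The psoas and EDL pairs shared an age but no code (0.222, 0.00275, and 0.512), and the pairs of different age lay between -0.306 and -0.0227, so the numbers were not taken to pair the samples. With replicate number as a block, 146, 586, and 539 genes were called in the 3 comparisons, the tropomyosin calls were 0 between psoas and EDL and 1 between soleus and psoas, and thin filament calls were 5 between soleus and psoas. Tpm2 (adjusted p = 0.0162, psoas against EDL) and Tpm1 (0.023, soleus against psoas) then missed the threshold.

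Shares moved by construction with the length used. Without length correction and with the longest coding transcript as length, the mean Tpm1 share was 95.1% and 93.6% in EDL, 93.4% and 91.4% in psoas, and 63.5% in soleus for the first. The Tpm2 share was 3.87% and 5.06% in EDL, 6.33% and 8.23% in psoas, and 8.97% and 10.7% in soleus. The Tpm4 share was 0.776% and 1.04%, 0.251% and 0.333%, and 0.534% and 0.651%. With the longest transcript, the Tpm3 share was 0.327%, 0.0717%, and 31.4%. The log2 ratio of Tpm1 to Tpm2 was 4.63 and 4.22 in EDL, 3.89 and 3.48 in psoas, and 2.83 and 2.42 in soleus. The untrimmed EDL 3 alone gave shares of 91.2% for Tpm1, 0.321% for Tpm3, and 0.927% for Tpm4.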
